A study of Mus musculus with 6 samples.

Results

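The kidney library of a survey of cleaved and decaying RNA in 6 adult mouse tissues was set against the libraries of lung, liver, spleen, brain and ovary. Each library was made from whole tissue of mice with a BALB-c genetic background, with no treatment, age in weeks or sex given in the labels, and each tissue had 1 library. The survey used parallel analysis of RNA ends (PARE), in which an adaptor is ligated to polyadenylated RNA that carries a 5' monophosphate and a short tag next to the adaptor is sequenced. By this method the start of a tag is the 5' end of an uncapped, polyadenylated RNA. The protocol in the labels names brain, liver and lung at the step that isolates polyadenylated RNA from total RNA, and whether kidney was handled in the same way is not stated there.

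All lines of the kidney table were taken and compared with all lines of the other tables. Sequences listed at 2 locations within a table were dropped, and the remaining tags were summed in 2 kb windows of each strand of the mouse genome build mm9. A single end on the minus strand of chromosome 1, at position 24619958, held 7.57% of the unique kidney tags (exact 95% interval 7.44 to 7.70) and was left out of every value unless stated. The kidney library then had 149991 tags on 108192 distinct 5' ends. They lay in 32236 of the 79112 windows that held a tag of any library. The other libraries ranged from 28497 tags in ovary to 487807 in lung. Levels are tags scaled to a total of 1000000 (CPM), and a window with 0 tags may still hold up to 3 counts, which is 20.0 CPM in kidney, 6.15 in lung and 105 in ovary.

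The kidney filters blood in the glomerulus and recovers most of the filtrate along the nephron. The proximal tubule takes back phosphate, glucose, amino acids, organic anions and filtered proteins through transporters and endocytic receptors of its brush border, and it makes glucose. The thick ascending limb recovers sodium chloride and secretes uromodulin, the distal convoluted tubule recovers further sodium chloride, and the collecting duct sets water and acid excretion. The proximal tubule is rich in mitochondria and peroxisomes. A 5'-monophosphate end of an mRNA arises by removal of the cap, by cleavage inside the transcript or during decay from the 5' end, so the number of tags of a gene depends both on how much RNA is present and on how much of it is uncapped. These cannot be told apart here. In whole tissue, fewer cells of a type and less RNA per cell cannot be told apart either.

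The sequences that begin at the kidney ends described below are shown first, from 5' to 3' as the deposited tags give them, with the base that carried the 5' monophosphate in capitals. The tags of Kap were chosen because this gene gave more kidney tags than any other named gene, and those of Gpx3, Miox and Umod as the strongest end of each gene. The Kap ends are on the minus strand of chromosome 6 at 133802073, 133803678 and 133803677, the Gpx3 end on the plus strand of chromosome 11 at 54723785, the Miox end on the plus strand of chromosome 15 at 89167368 and the Umod end on the minus strand of chromosome 7 at 126606529.
Kap, strongest end: Tactaaactcagtctttgac
Kap, base 8 of the transcript: Ttctcctgttcactggttgc
Kap, base 9 of the transcript: Tctcctgttcactggttgcc
Gpx3, strongest end: Actacccccgcgcctctggag
Miox, strongest end: Tcagggttcacagtccccac
Umod, strongest end: Tgtctcctgaaggaatgtgg

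Tags that begin at a mature microRNA also stood high in kidney, and the mature sequences of those that the results turn on are given here from RefSeq (table of the assembly GRCm38.p6), with the seed, bases 2 to 8, in capitals. let-7b-5p and let-7d-5p share the seed GAGGUAG. miR-200b-3p and miR-200c-3p share the seed AAUACUG. miR-26b-5p and miR-196b-5p have seeds of their own in this set.
let-7b-5p: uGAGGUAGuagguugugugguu
let-7d-5p: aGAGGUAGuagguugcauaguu
miR-26b-5p: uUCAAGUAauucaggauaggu
miR-196b-5p: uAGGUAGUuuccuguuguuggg
miR-200b-3p: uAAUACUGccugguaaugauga
miR-200c-3p: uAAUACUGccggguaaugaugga

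The labelled tissue was checked with Kap, Gpx3 and Umod. Kap, an androgen-regulated protein of the proximal tubule, had 8761 kidney tags, 2299 lung tags, 25 liver tags, 31 spleen tags, 3 brain tags and 9 ovary tags. Gpx3, the secreted glutathione peroxidase made in the kidney, had 2727 tags in kidney, 1245 in lung, 22 in ovary, 7 in spleen, 5 in liver and 2 in brain. Umod, which encodes uromodulin, had 410 tags in kidney, 89 in lung, 1 in liver, 2 in spleen and none in brain or ovary. After scaling, kidney was the highest library for all 3 markers and lung the next. The ratio of kidney over lung was 12.4 for Kap (exact conditional binomial 95% interval 11.8 to 13.0), 7.12 for Gpx3 (6.66 to 7.62) and 15.0 for Umod (11.9 to 19.1). Intervals cover counting error only, since the spread between animals was not measured and PCR copies of a tag are not independent molecules.

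A window or gene was called led by kidney if it held 20 or more kidney tags and if its ratio to the next highest library had a 95% interval wholly above 1. This held for 257 of 1034 windows with enough kidney tags, which is 24.9%. The led windows held 21.2% of the kidney tags (interval 21.0 to 21.4), while the same windows held 3.35% of the tags in lung, 2.16% in liver, 1.94% in ovary, 1.76% in brain and 0.792% in spleen. The second highest library was lung in 142 of the led windows, liver in 62, ovary in 23, brain in 22 and spleen in 8. The median ratio over the second highest library was 5.51. Since the windows were chosen for a high kidney level, the larger kidney share and a median above 1 follow from that choice. Windows of Kap held 5115, 2569 and 1077 of the kidney tags in led windows, and a window of Gpx3 held 2601. When the lower bound had to exceed 1 against each of the other 5 libraries, 220 windows remained.

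**Figure D1:**
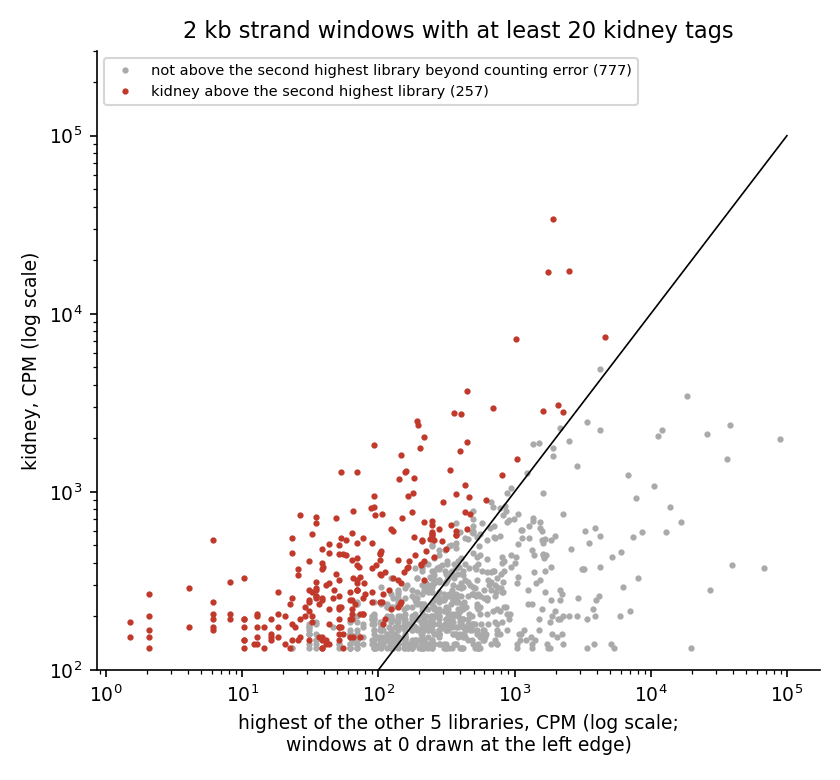
Each point is a 2 kb strand window with at least 20 kidney tags, with its kidney level (CPM, log scale) against the highest of the other 5 libraries (CPM, log scale), and the line marks equal levels. The 257 red windows lie above the line beyond counting error, and the 777 grey windows do not.

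A gene could be named for 220 of the led windows, which belonged to 161 genes, and 37 stayed unnamed, 10 of them on chromosome 18. Summed over its windows, kidney led 224 of 1128 genes with at least 20 kidney tags, which is 19.9%. The led windows with the largest lower bounds were mostly of genes known from the tubule. The first of them lay in Umod (chr7:126620001-126622000, minus strand) and had 81 tags in kidney, 3 in lung and none in the other 4 libraries. A window of Akr1c21, an aldo-keto reductase that acts on steroids (chr13:4578001-4580000, plus strand), had 28 kidney tags and none elsewhere, so no ratio is given. Another of Ndrg1 (chr15:66762001-66764000, minus strand) had 40 kidney tags against 1 in lung, and 1 of Cdh16, the kidney cadherin (chr8:107142001-107144000, minus strand), had 43 against 2. Windows of Slc34a1, Slc27a2, Miox, Dnase1, Dao, Spp1, Mpv17l, Cltrn and Kcnj1 were also among the leading 20, as were 2 windows that were not named. The stronger of these, chr8:22904001-22906000 on the plus strand, had 195 kidney tags, 26 lung tags, 1 liver tag and none in spleen, brain or ovary. The other, chr15:4102001-4104000 on the plus strand, had 31 kidney tags and 3 lung tags. By kidney tags, the strongest unnamed led window was chr18:43886001-43888000 on the minus strand, with 553 in kidney, 219 in lung, 2 in liver, 3 in spleen and none in brain or ovary.

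Sums over the whole gene are given next for genes of these windows. They include the windows by which the genes were picked, so they are not separate support. Akr1c21 had 355 kidney tags and 67 lung tags, and Ndrg1, a stress-responsive gene, had 404 and 97. Cdh16 had 318 kidney tags, 87 lung tags and 1 each in liver and ovary (ratio over lung 11.9, interval 9.35 to 15.2). Cltrn, or collectrin, which carries amino acid transporters to the brush border, had 145 kidney tags, 27 lung tags and 1 spleen tag (17.5, interval 11.5 to 27.4). Spp1, which encodes osteopontin, had 254 and 62 (13.3, interval 10.1 to 17.9), and the mitochondrial and peroxisomal gene Mpv17l 91 and 24. Slc27a2, a fatty acid transporter and acyl-CoA synthetase found in kidney and liver, had 530 tags in kidney, 100 in lung and 42 in liver and none in the other 3 libraries. For this gene liver was the second highest, at a ratio of 6.59 (4.81 to 9.25).

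The proximal tubule was the largest of the nephron lists. Of 32 listed markers, 30 were named and all 30 had kidney tags. Kidney led 23 of the 26 with at least 20 kidney tags, against the background of 19.9% for all genes, and the median ratio over the second highest library was 9.36, beside 0.95 for all genes. Among the apical transporters, Slc34a1, which recovers phosphate with sodium, had 361 tags in kidney, 107 in lung, 1 each in liver and spleen and none in brain or ovary. Its ratio over lung was 11.0 (interval 8.82 to 13.7). Slc6a19 and Slc3a1, both needed for amino acid uptake, had 64 and 109 kidney tags, with 14 and 29 lung tags. Slc5a2, the glucose transporter of the early proximal tubule, had 49 kidney tags, 16 lung tags and none in the other libraries. Slc22a12, the urate exchanger of the brush border, had 51 kidney tags, 10 lung tags and none elsewhere. In all of these the kidney value lay above every other library after scaling.

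Basolateral and endocytic genes of the same segment were also highest in kidney. Slc22a6 and Slc22a8, which take up organic anions from blood, had 49 and 70 kidney tags, with 11 and 20 lung tags. Neither had a tag in liver, spleen, brain or ovary. Lrp2, the giant endocytic receptor megalin, had 238 tags in kidney, 80 in lung and 1 each in liver, spleen and ovary (ratio over lung 9.68, interval 7.48 to 12.6). Its partner Cubn had 15 kidney tags and 5 lung tags, too few for a call.

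Enzymes of the proximal tubule differed in how far liver came near kidney. Miox, which breaks down inositol and is largely restricted to kidney, had 488 tags in kidney, 106 in lung, 2 in spleen, 1 each in brain and ovary and none in liver (ratio over lung 15.0, interval 12.1 to 18.7). Dnase1 had 383 kidney tags, 53 lung tags, 2 spleen tags and 1 ovary tag, and its ratio over lung was 23.5 (17.6 to 31.9). Gatm, which makes the precursor of creatine, had 417 kidney tags and 87 in lung, with 10 each in spleen and brain and 3 each in liver and ovary, and after scaling brain was the second highest (ratio 8.93, interval 4.81 to 18.8). Ggt1, the brush border enzyme that splits glutathione, had 191 kidney tags and 37 lung tags and none elsewhere. For the enzymes shared with liver the ratios were smaller. Fbp1 and Pck1 of gluconeogenesis had 101 and 99 kidney tags against 33 and 9 in liver, ratios of 1.60 (1.07 to 2.45) and 5.75 (2.91 to 12.9). Ass1 and Acsm1 were not separated from liver, at ratios of 1.11 (0.780 to 1.60) and 1.18 (0.762 to 1.86). Cyp2e1, which liver makes in quantity, was the third marker not led, with 60 kidney tags against 250 in liver, and its kidney level was 0.125 of the liver level.

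The later segments of the nephron were present at lower counts, and few of their markers had enough tags for a call. Of all genes with enough kidney tags, 19.9% were led. In the thick ascending limb kidney led 5 of 5 markers with enough tags, among them Umod, used above to check the tissue. Beside Umod, these were Slc12a1, the cotransporter blocked by loop diuretics, with 135 kidney tags and 43 lung tags, Egf with 88 and 36, the potassium channel Kcnj1 with 57 and 12, and Ppp1r1a with 47 and 15. Slc12a1 and Kcnj1 had no tag in the other 4 libraries. In the distal convoluted tubule 3 of 5 named markers had enough tags, and kidney led 2 of them. These were Slc12a3, the thiazide-sensitive cotransporter, with 50 kidney tags and 14 lung tags, and Klk1 with 63 and 36. Wnk1 was at a ratio of 1.25 over lung (0.885 to 1.73). In the collecting duct 2 of 9 named markers had enough tags, and kidney led both. Aqp2, the vasopressin-regulated water channel, had 22 tags in kidney, 8 in lung and none elsewhere (ratio 8.94, interval 3.83 to 23.2). Atp6v1g3, a proton pump subunit of intercalated cells, had 25 kidney tags and 6 lung tags (ratio 13.6, interval 5.43 to 40.4). The other 7 named collecting duct markers had between 1 and 14 kidney tags and were not called. Of a short list for the thin limb and for water channels shared by several segments, kidney led 0 of 2. Aqp1, the water channel of proximal tubule and descending limb, which endothelium also makes, had 71 kidney tags and 215 lung tags (ratio 1.07, interval 0.809 to 1.41), and Cryab had 38 and 89, with brain second (1.36, interval 0.569 to 3.92).

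**Figure D2:**
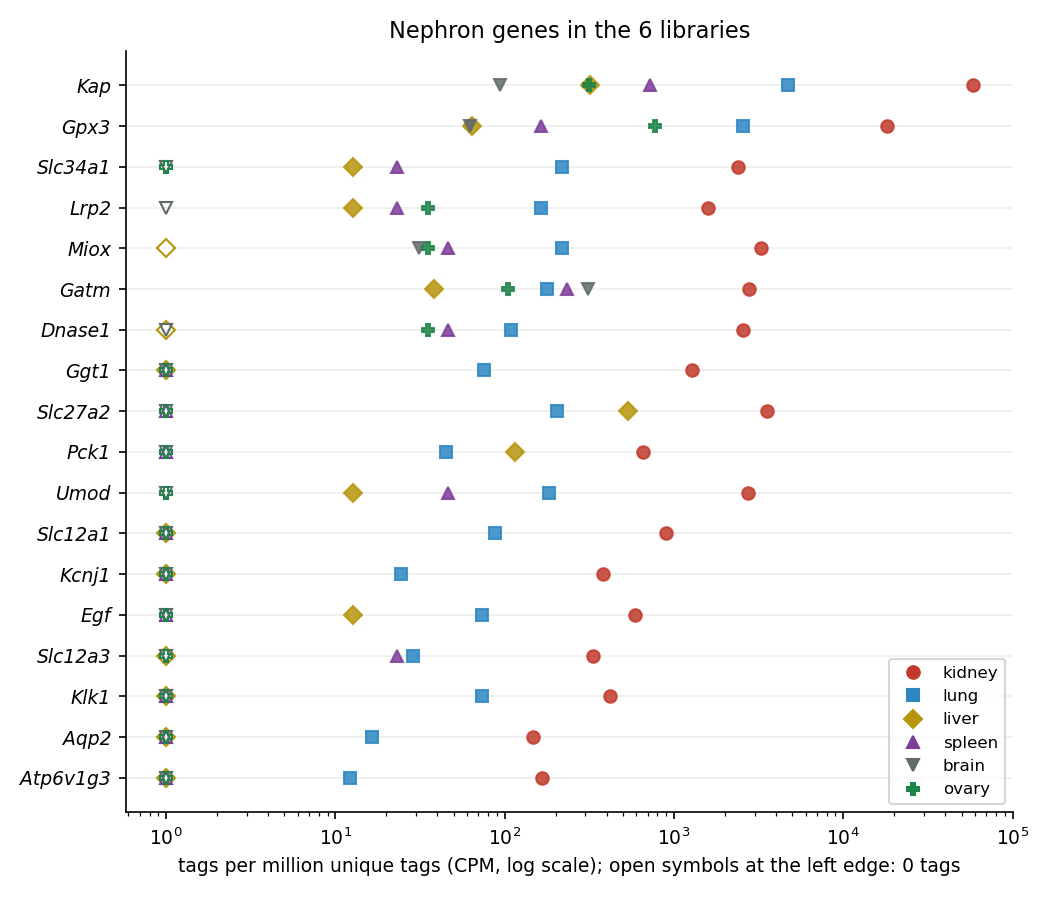
Levels of 18 nephron genes in the 6 libraries, in CPM on a log scale, with 1 symbol per library and open symbols at the left edge for 0 tags. Kidney (red circles) is the highest library for every gene drawn, and lung (blue squares) is the second for all but 3 of them.

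Glomerular and vascular markers were scarce. The 4 named podocyte markers had 17 kidney tags in all. The same list had 158 lung tags and stood higher in lung, at 324 CPM against 113 in kidney. Nphs1, which encodes nephrin, had 1 kidney tag and Wt1 none, with 1 lung tag each, Podxl had 6 and 22 and Clic5 had 10 and 134. Ren1, which encodes renin, had 1 kidney tag. Endothelial markers summed to 533 CPM in kidney against 1261 in lung, and smooth muscle and stromal markers to 400.0 against 1537 in lung and 2948 in ovary. None of the endothelial, stromal, immune or red cell genes with at least 20 kidney tags was led by kidney (1, 1, 2 and 2 genes). Of all genes 19.9% were led, and so few genes do not separate these lists from that share. The immune genes Ptprc, Lyz2, Cd79a and Cd79b had no kidney tag.

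Among solute carriers, the membrane transporters with symbols starting Slc, kidney led 25 of 48 with at least 20 kidney tags, which is 52.1%, beside 19.9% of all genes. Many of the led carriers are also markers of the nephron lists above, so this count is not separate from those. Beside those above, Slc5a10 had 116 kidney tags and 23 lung tags (ratio 16.4, interval 10.4 to 26.9), Slc6a18, a transporter of neutral amino acids, 103 and 24 (14.0, interval 8.88 to 22.8), and Slc7a9, the light chain that pairs with Slc3a1, 23 and 1 (74.8, interval 12.1 to 3081). Slc4a4, the sodium bicarbonate cotransporter that carries bicarbonate back to blood, had 117 kidney tags and 24 lung tags, with brain second at 10 tags (ratio 2.51, interval 1.31 to 5.36). Of the sodium pump genes, Fxyd2, a renal regulator of the pump, had 464 kidney tags and 184 lung tags (8.20, interval 6.90 to 9.78). Atp1b1, the pump's beta subunit, had 317 kidney tags, but 67 brain tags put brain at the same level after scaling (ratio 1.01, interval 0.776 to 1.34).

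Lists of brush border, redox and amino acid genes held fewer members. Of the brush border list kidney led 4 of 5 genes with enough tags, beside 19.9% of all genes, which were Ggt1, Pdzk1 (128 kidney tags, 33 in lung), the metalloprotease Mep1a (90 and 30) and neprilysin Mme (27 and 43). Ace, which endothelium of lung makes in quantity, had 10 kidney tags and 192 lung tags. Of the selenium and glutathione list kidney led Gpx3 and Gsta2 (64 kidney tags, 14 in lung), whereas Gpx1 had 332 kidney tags and 331 liver tags, so that kidney was at 0.524 of the liver level (0.449 to 0.612). For amino acid enzymes kidney led 3 of 11, which is 27.3% and near the 19.9% of all genes, namely Gatm, Dao, which oxidises D-amino acids (51 kidney tags, 5 in lung), and Ddc (23 kidney tags, 2 in liver). Without the liver library 8 of 11 were led, beside 26.9% of all genes. Hgd, shared with liver, was at a ratio of 1.03 (0.860 to 1.23).

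Most genes of the respiratory chain and ATP synthase were not led by kidney. Kidney led 15 of 53, which is 28.3% beside 19.9% of all genes. The largest lower bound was that of Atp5b, the catalytic subunit of ATP synthase, with 403 kidney tags, 241 in lung, 51 in liver, 28 in brain, 15 in spleen and 23 in ovary. Its ratio over brain, the second highest, was 3.08 (2.10 to 4.70), while Atp5g3, with 446 kidney and 180 liver tags, was at 1.29 over liver (1.09 to 1.55). When each distinct 5' end was counted once in place of its tags, 4 of 49 genes of this list were led, 8.16% beside 17.3% of all genes, and 3 of those were among the 15. With scaling by the trimmed mean of M values 36 of 53 were led, 67.9% beside 29.4% of all genes. That scaling moved the median ratio of all genes over the second highest library from 0.95 to 1.11. Gluconeogenesis and fructose genes were also sensitive to the first of these choices, with 5 of 6 led by tags and 2 of 5 by distinct ends. The proximal tubule list changed little, with 22 of 26 led by distinct ends and 23 of 26 with the other scaling.

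Ribosomal protein genes were not led. None of 17 genes with symbols starting Rpl or Rps and at least 20 kidney tags was led, beside 19.9% of all genes, and their median ratio over the second highest library was 0.351, beside 0.95. Windows in which kidney was below every other library beyond counting error numbered 3 of 1021 with at least 100 tags, which is 0.294%, and genes 2 of 1066, which is 0.188%. In Rplp1, a protein of the ribosomal stalk, the window chr9:61760001-61762000 on the minus strand had 44 tags in kidney, 715 in lung, 81 in liver, 28 in brain, 268 in spleen and 50 in ovary. Kidney was at 0.336 of the brain level there (0.205 to 0.561), brain being the lowest of the others. The Hmg20b window (chr10:80808001-80810000, minus strand) held 521 kidney tags, 517 of them at 1 end, and was at 0.861 of the liver level (0.747 to 0.994). The third, chr19:31160001-31162000 on the plus strand, was not named and had 229 tags in kidney, 3578 in lung, 476 in liver, 1165 in brain, 148 in spleen and 59 in ovary. None of the 3 was below the others when the scaling was the trimmed mean of M values.

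Lung was the second highest library for 12 of the 26 proximal tubule genes with enough tags, and for 4 of 5, 3 of 3 and 2 of 2 of the later segments. It was also second in 142 of the 257 led windows of any gene, so this place of lung was not particular to tubule genes. The share over all genes was not counted. For the 34 nephron genes led by kidney, with Kap and Gpx3, the lung level was 3.75% of the kidney level at the lowest, 7.53% at the median and 17.6% at the highest, and no gene had 0 lung tags. These genes were chosen as led by kidney, so a lung level below that of kidney follows from the choice. Of the same 34 genes, 17 had no tag in liver, 21 none in spleen, 27 none in brain and 24 none in ovary, but a count of 0 allows more in those shallower libraries. Over all 1034 windows with enough kidney tags the median ratio of kidney over lung was 2.33. Over the led windows, which were chosen for a high kidney level, it was 7.46. The share of a gene's lung tags that began at a base with a kidney tag varied widely, and it grows with the number of bases that hold a kidney tag. It was 97.9% for Kap and 96.7% for Gpx3, the genes with the most kidney ends. For other tubule genes it was 71.7% in Miox, 50.6% in Umod, 48.8% in Lrp2, 16.3% in Slc12a1, 9.09% in Slc22a6 and 0% in Slc4a4. Without the lung library 254 windows were led, 246 of them among the 257. The origin of these lung tags was not tested.

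Transcripts of the liver were also found in kidney. All 9 named liver markers had kidney tags, at 1.31% of the liver level at the lowest, 5.37% at the median and 6.93% at the highest. Alb, which encodes albumin, had 746 kidney tags, 890 in lung, 9136 in liver, 4 in brain, 290 in spleen and 12 in ovary. Summed over the list the level was 8541 CPM in kidney, 180664 in liver, 9669 in spleen, 3657 in lung, 1121 in brain and 737 in ovary. The lung list summed to 413 CPM in kidney against 79208 in lung, with Sftpb and Sftpd at 0 kidney tags and Scgb1a1 at 61 against 35759 in lung. Hbb-bs, an adult globin gene, had 127 kidney tags against 594 in spleen. The part of tags from other tissues or libraries in these values was not tested.

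Within a gene, kidney tags lay farther towards the 5' side than those of lung. The windows of each named gene with at least 20 tags in kidney and lung together were ordered along the transcript, and the first was compared with the last, which is a comparison added once the values were known. The ratio of kidney over lung was higher in the first window in 470 of 549 genes, 85.6%, and the median gene differed 2.31-fold. The difference exceeded counting error in 117 genes, with intervals that did not overlap, and in 4 genes it did so in the other direction. Umod had 81 kidney and 3 lung tags in its first window and 242 and 71 in its last, so that kidney over lung was 87.8 and 11.1. Slc34a1 had 23 kidney tags and no lung tag in the first window and 264 and 99 in the last. Kap went from 17.7 in the first to 7.06 in the last window. Genes not led by kidney moved in the same direction, with 385 of 457, as did 85 of the 92 led genes. In Actb, the cytoskeletal actin, the ratio was 0.908 in the first window and 0.228 in the last.

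The same comparison with the other libraries separated them. Kidney over liver was higher in the first window in 129 of 158 genes, with a median difference of 2.25-fold, and kidney over spleen in 85 of 102, with 4.79-fold. For brain the count was 58 of 98 with 1.21-fold and for ovary 56 of 92 with 1.19-fold, and only 3 genes in each passed counting error towards the first window. The cause was not tested. In the led genes a ratio over lung thus depends on which part of the gene a window covers.

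**Figure D3:**
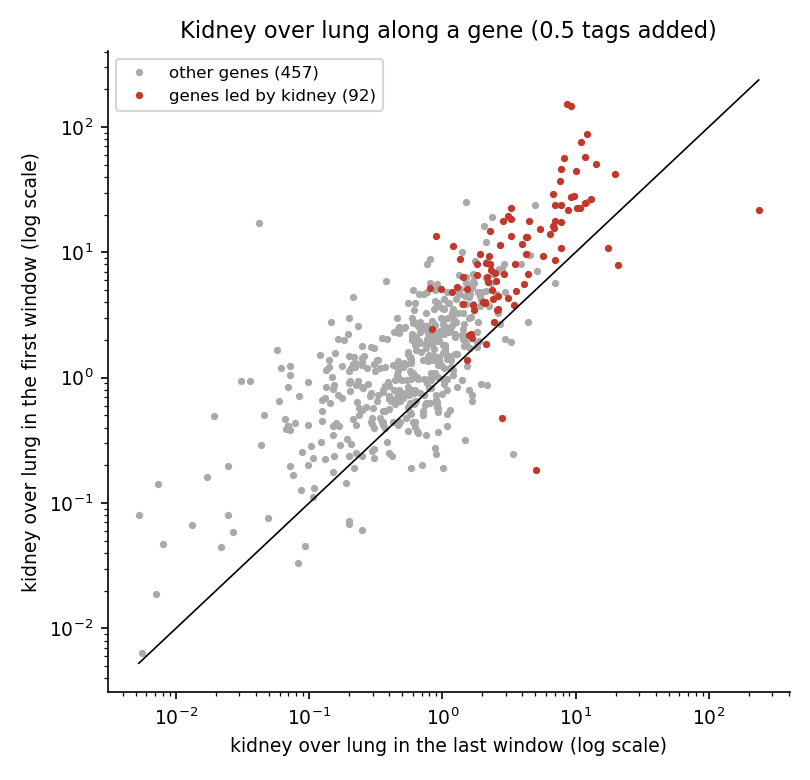
Each point is a gene, with the ratio of kidney over lung (CPM, log scale, 0.5 tags added to each count) in its first 2 kb window on the vertical axis and in its last on the horizontal axis, and the line marks equal ratios. Of the 549 genes 470 lie above the line, among them 85 of the 92 genes led by kidney (red).

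Kap shows where along a transcript the kidney ends fall. Its 3 led windows, chr6:133798001-133800000, chr6:133800001-133802000 and chr6:133802001-133804000 on the minus strand, held 1077, 2569 and 5115 kidney tags and 496, 864 and 939 lung tags. The kidney tags fell on 449 distinct ends, and the strongest of them held 659 tags, 7.52% of the gene (6.98 to 8.10). The same end had 119 tags in lung, 1 in ovary and none in liver, spleen or brain. The ends gathered in separate groups along the gene, with few between them, and lung ends followed the same groups. Whether the groups match exons was not analysed here, since no mm9 annotation was used.

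A group of Kap ends lay at the RefSeq start of the transcript. The first 30 bases held 1002 kidney tags, 11.4% of all Kap tags (10.8 to 12.1), against 125 lung tags, 5.44% (4.55 to 6.44). Most of them began at bases 7 to 9, with 724 kidney tags and 70 lung tags. The tags of bases 8 and 9, whose sequences are printed above, had 285 and 302 kidney tags and 24 and 29 lung tags. Kidney exceeded lung 38.6-fold at base 8 (25.4 to 61.3) and 33.9-fold at base 9 (23.1 to 51.4), both more than the gene as a whole. Both are among the strongest kidney ends of Kap, and a choice by kidney tags favours a high ratio. In most genes compared above, kidney over lung was also higher on the 5' side. Other genes gave few tags in their first 30 bases. Over the genes in the RefSeq table without Kap these amounted to 2927 CPM in kidney, 2807 in ovary, 2180 in brain, 1829 in lung, 957 in liver and 93.2 in spleen.

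**Figure D4:**
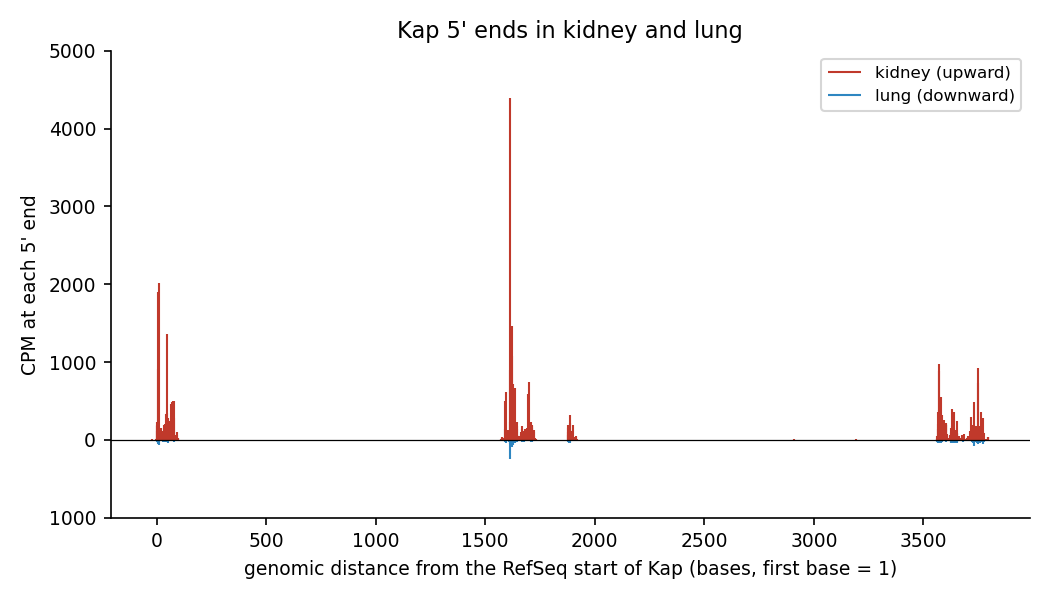
Kap 5' ends by genomic distance from the RefSeq start (bases), with the level of each end in CPM, kidney upward and lung downward. Ends stand in the same groups in both libraries, and kidney is the higher at the strongest end, with 659 tags against 119 in lung.

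In most other tubule genes no single end stood out. Gpx3 had 501 kidney ends, and its strongest held 185 of 2727 tags, 6.78% (5.87 to 7.79). Umod had its tags on 271 ends with at most 16 on 1 end, and Lrp2 on 163 ends with at most 12. Miox was more uneven, with 74 of its tags, 15.2% (12.1 to 18.7), at 1 end that had 7 lung tags. Slc22a12 had 16 of 51 tags at 1 end, 31.4% (19.1 to 45.9), against 2 in lung. Over the 257 led windows the strongest end held 9.09% of the kidney tags at the median, against 11.1% in the 777 other windows with enough tags, and it held at least 50% in 18 and 69 of them.

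The 10 strongest kidney ends were mostly not of tubule genes. The first began at the mature start of let-7b in its host transcript Lncppara (position 85537755 of chromosome 15, plus strand), with 957 tags in kidney, 685 in lung, 56 in liver, 78 in brain, 7 in spleen and 56 in ovary. It held 85.8% of the kidney tags of its window (83.6 to 87.8). Ends in Mtch1 with 727 kidney tags, Hmg20b with 517, Rnf11 with 425 and Rpp25l with 311 were found in 5 or 6 libraries. Kidney exceeded the second highest library at the end in Rnf11, which encodes a ubiquitin ligase, 1.76-fold (1.29 to 2.43), and at the end in Rpp25l 1.35-fold, over liver (1.09 to 1.69). The Hmg20b end was at 0.187 of the lung level (0.171 to 0.205). At the end in Mtch1 kidney was not separated from brain (1.15, interval 0.958 to 1.40). The end in Igfbp7, which encodes a secreted growth factor binding protein, had 372 tags in kidney, 231 in lung and 7 in ovary, a ratio over lung of 5.24 (4.43 to 6.20). An end on the minus strand of chromosome 1 at 79919176 was not named and had 360 kidney tags, 156 in lung and 8, 3, 11 and 10 in liver, spleen, brain and ovary. It was 6.84 times the ovary level (3.68 to 14.4). The 10 were completed by an unnamed end on the plus strand of chromosome 18 at 65408578, with 340 kidney and 2796 liver tags, and by 2 ends of Kap.

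MicroRNAs are cut from hairpins of longer transcripts. A tag that begins at a mature microRNA marks RNA whose 5' end is that of the mature strand. Tags of 20 or 21 bases do not show where that RNA ended, and whether it ran to a poly(A) tail was not tested. Tags matching RefSeq hairpins of this table within 1 base of a mature start summed to 1517 in kidney, 1.01% of the library (0.961 to 1.06), from 55 mature microRNAs. The shares were 0.476% in brain, 0.361% in ovary, 0.274% in lung, 0.161% in liver and 0.147% in spleen. The kidney sum rested on let-7b, with 916 exactly matching tags, and miR-26b, with 282. Without both it was 2127 CPM in kidney, against 2304 in brain, 1579 in ovary, 1253 in lung, 1188 in spleen and 498 in liver.

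Among single microRNAs, only let-7b, miR-26b, let-7d and miR-196b had at least 20 kidney tags at the mature start. Kidney led these except let-7d, and of all genes with that many kidney tags it led 19.9%. For let-7b the matching tags gave a ratio of 2.58 over brain (2.04 to 3.31). miR-26b, which lies in the gene Ctdsp1, had 282 kidney tags, 66 in lung, 34 in liver, 3 in brain, 5 in spleen and 5 in ovary, 4.33 times the liver level (3.03 to 6.38). miR-196b, of a homeobox gene cluster, had 62 kidney tags, 1 in lung, 2 in ovary and none elsewhere, 5.89 times the ovary level (1.56 to 49.7). The epithelial microRNAs miR-200b and miR-200c each had 13 kidney tags, with 9 and 10 in lung and none in the other 4 libraries. let-7d had 63 kidney tags but was not separated from brain, which had 12 (1.12, interval 0.601 to 2.29). At the cut after the microRNA of the 3' arm kidney had 212 tags, 1413 CPM. The other libraries stood at 3018 in ovary, 1521 in lung, 1183 in brain, 396 in spleen and 115 in liver. The largest count there was after miR-24-3p of the gene Mir24-2, with 98 kidney tags and 387 lung tags, 0.824 of the lung level (0.653 to 1.03). Only that site and the one after miR-425-3p had the 20 kidney tags needed for a call. Kidney led the latter, with 20 kidney tags and 22 lung tags (2.96, interval 1.53 to 5.68).

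**Figure D5:**
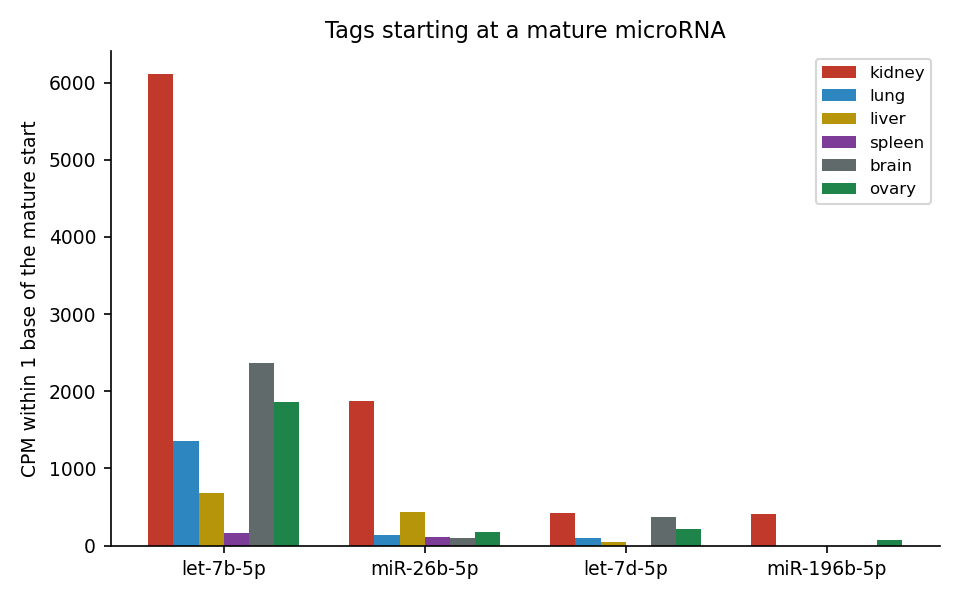
Tags that begin within 1 base of the mature start of 4 microRNAs, in CPM, with 1 bar per library. Kidney is the highest library for let-7b-5p, miR-26b-5p and miR-196b-5p beyond counting error, and for let-7d-5p it stands beside brain.

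The library most like kidney depended on the windows used, and it was liver over windows with enough tags. Across the 12337 windows that held 10 or more tags when all libraries were summed, Pearson's r of log2(CPM + 1) was 0.389 with liver, 0.317 with lung, 0.281 with ovary, 0.216 with brain and 0.0809 with spleen, and Spearman's rho gave 0.404, 0.296, 0.300, 0.236 and 0.0838. These values describe windows, which share libraries, depth and genes, and are not tests. They fell to 0.111 for liver and below 0 for ovary, brain and spleen when all windows with 1 tag in either library were used, and lung was then the highest at 0.342.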

How the data were processed

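The deposited tables list, per the labels and the accompanying note of the authors, each distinct tag with its mm9 location, strand, sequence and read count, aligned with Bowtie per the submitters' processing notes (version not given in the sources used here). The deposited score is the authors' display value, which rose by 70 for each read and stood at 999 where a tag had 13 or more (100% of lines fit), and was not used. Read counts, as the authors deposited them, were summed per 5' end, which is the first base on the plus strand and the last on the minus strand. Sequences on 2 lines of a library, 9.91% of the kidney lines, were dropped. Tags of 20 or 21 bases made up 99.6%.

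No annotation of mm9 was used. Deposited tags equal to 20 bases of a RefSeq promoter or hairpin (GRCm38.p6), 2639 tags of 1121 genes and hairpins, fixed the local shift between the builds. Genes were placed between such tags. A gene was matched on its listed strand, or, where none was listed, on the strand with at least 90% of its tags. A window was named where at least 90% of its tags lay in 1 gene. Of 716 genes with a known place 644 were named, all correctly. These had a listed strand, so the check did not cover genes without one. Ends named this way held 81.2% of kidney tags, no gene of chromosome 18 was named, and exons were not analysed. Overlapping genes and paralogs can share tags. The design had intended matches to single tags or proteins, and placement between matched tags took their place.

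With 1 library per tissue no test between tissues was made. Ratios of CPM carry exact conditional binomial and shares exact Clopper-Pearson 95% intervals, and a count of 0 was taken to allow 3. Named windows are the 20 led windows with the largest lower bound, the 10 with the most kidney tags, those below every other library and the windows of listed genes; named ends are the 10 with the most kidney tags and the strongest of each gene. Ctdsp1 and Actb were chosen after their values were seen. Some listed genes are not reported here. The markers, lists and settings were chosen with earlier results of these data known. The calls were also run on simulated independent counts, which hold no PCR copies of a tag and so do not test the calls on these data. Scaling, window size, what is counted, minimum counts and each library's removal were varied. Python 3.11.15, numpy 2.4.6, pandas 2.3.3 and scipy 1.17.1 were used.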

Additional observations from a re-analysis of the deposited data

Results flagged for a closer look

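Kidney tags outside the comparisons were flagged in both sets of data that were set aside. The end on the minus strand of chromosome 1 held 12279 kidney tags, 7.57% of the unique kidney tags, against 3.80% in brain, 2.45% in ovary, 1.08% in lung, 0.762% in liver and 0.0419% in spleen. With it kept, 236 windows were led, 234 of them among the 257.

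Sequences listed at 2 locations held 17458 kidney tags, 9.71% of all kidney tags. The shares in the other libraries were 17.2% in spleen, 11.2% in ovary, 9.98% in lung, 9.73% in brain and 8.62% in liver. Kept at each location, they gave 276 led windows.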

How the results depend on the processing

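No paired analysis was possible because each tissue had 1 library. The 257 led windows became 155 with distinct 5' ends counted once (150 of them among the 257), 139 with a bound above 2, 426 with a minimum of 10 kidney tags and 121 with a minimum of 50. They numbered 254 to 349 without 1 of the other libraries, 220 with the bound against each other library, and 236 to 381 under the other settings, the highest with TMM scaling (241 among the 257). Their share of kidney tags, 21.2%, was 24.8% with TMM scaling, 7.41% with distinct ends, 19.5% with 1 kb windows, 23.1% with 5 kb windows, 21.0% with shifted windows, 20.3% with tags at 2 locations kept, 26.1% with the chromosome 1 end kept, 15.3% with the bound of 2, 22.7% and 18.3% with the minimum of 10 and 50 tags, 20.4% against each other library, and 21.1% to 25.0% without 1 library. The 3 lowest windows became 0 with TMM scaling or a bound of 0.5, 5 with the chromosome 1 end kept and 3 to 14 without 1 library. The correlation with lung was 0.244 with distinct ends, 0.427 with a pseudocount of 10 CPM and 0.195 over windows with 50 tags. With that pseudocount it was 0.469 for liver, 0.141 for spleen and 0.341 for ovary, and over windows with 50 tags 0.0268 for spleen. With 1 tag in either library it was 0.111 for liver, -0.149 for spleen, -0.180 for brain and -0.0623 for ovary. The strongest Kap end held 12.9% of its window, or 16.2% within 1 base. Of 89 led genes followed, 69 kept their call with distinct ends, 18 lost it and 2 turned, Lncppara to 0.307 and Ndufa4 to 0.980, and 3 lost it with TMM scaling. In 18 cases a setting left every other library at 0 tags and gave no ratio. The cause of these changes was not tested. Kidney values below 20.0 CPM and ovary values below 105 CPM are within the limit of a 0 count. No replicate measured the spread between animals, and the shallow brain, ovary and spleen libraries bound the ratios least.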

Other observations

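A further 6 genes were picked from the 224 led by kidney after their values were seen, and they stand for themselves, not for a pathway. Kl, which encodes the co-receptor klotho for a phosphate-lowering hormone, had 44 kidney tags, 9 lung tags and 1 liver tag, and kidney exceeded lung 15.9-fold (7.66 to 37.0). Pth1r, the receptor of parathyroid hormone, had 85 kidney tags and 22 lung tags (12.6, interval 7.79 to 21.1), and the vitamin D receptor gene Vdr 31 and 11 (9.17, interval 4.48 to 20.2). S100g, a vitamin D-dependent calcium-binding protein, had 426 kidney tags, 283 lung tags, 1 liver tag and 2 ovary tags (4.90 over lung, interval 4.20 to 5.71). All 4 had lung as the second highest library.

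Hao2, a peroxisomal oxidase of hydroxy acids, had 124 kidney tags, 29 in lung and 2 in ovary, and Acsm2, an acyl-CoA synthetase of the mitochondrion, had 123, 15 and 1. Neither had a tag in liver, spleen or brain. Ovary was the second highest for both after scaling, and its few tags left wide intervals of 3.19 to 98.3 and 4.12 to 930.4.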
